A study of Mus musculus with 24 samples.

Results

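The genes described are 32 members of the cyclic AMP (cAMP) pathway, taken by name as a list of 10 adenylyl cyclases, 16 cyclic nucleotide phosphodiesterases, 2 catalytic subunits of protein kinase A (PKA) and 4 regulatory subunits of PKA. They are 32 of the 55471 genes in the count files. All 24 libraries come from mouse embryonic fibroblasts (MEFs) of the immortalized 3T3 type, with 3 libraries in each of 8 groups. The groups were wild-type (WT) cells, Lkb1-/- cells, which lack the kinase gene Stk11 (Lkb1), and 2 lines, A1 and A2, that lack both Stk11 and Crtc2 (Lkb1-/-/Crtc2-/-, or DKO), each line left untreated or given interleukin-1β (IL-1β) for 6 h, at 0.1 ng/mL by the methods. By the methods each DKO line is a clone grown from a single cell after Cas9 was aimed at the first exon of Crtc2, and both also lack Stk11. WT and Lkb1-/- cells are separate established lines, and the effect of a genotype and the history of a line cannot be told apart. Nothing in the labels says that the 3 libraries of a group came from separate cultures on separate days, so the p-values measure the spread between these libraries, which may be technical.

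Adenylyl cyclases make cAMP from ATP when a receptor coupled to the G protein Gs is engaged, and phosphodiesterases hydrolyse it. PKA is held inactive by regulatory subunits, and cAMP binding to these releases the catalytic subunits, which phosphorylate targets that include the transcription factor CREB. LKB1 activates the salt-inducible kinases, which keep the CREB coactivator CRTC2 in the cytoplasm, and PKA phosphorylates and restrains those kinases. The phosphodiesterase families differ in substrate: PDE4, PDE7 and PDE8 hydrolyse cAMP, while PDE1, PDE2, PDE3, PDE10 and PDE11 also accept cyclic GMP. The comparisons asked how transcripts of these genes differ without LKB1, whether the additional loss of CRTC2 changes them, and whether IL-1β does.

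Library depth ran from 38842901 to 48594394 counts on genes. Stk11, the deleted kinase gene, was at a mean of 85.99 CPM, the usual count scaled to library size, in untreated WT cells and 17.3 in untreated Lkb1-/- cells, and Crtc2 was lower in both DKO lines than in Lkb1-/- cells (log2 fold change −0.92 in A1 and −0.70 in A2). The summed level of 10 fibroblast markers was between 5720 and 9940 CPM in every library, although Thy1 was at no more than 3 counts. Of the 9 tested, 4 were higher and 4 lower in untreated Lkb1-/- than in WT cells. Pdgfra, named after its values were seen, was at a mean of 4.58 CPM in untreated WT and 341.8 in untreated Lkb1-/- cells, and the 4 smooth muscle markers summed to 407 to 727 CPM in WT and 3.93 to 31.8 CPM in the other lines, nearly all of it Acta2. In the leukocyte list Ptprc and Adgre1 had at most 1 count in a library, and the 5 markers summed to 2.49 to 5.13 CPM in WT and 4.32 to 8.96 in the other lines. Of these 5, Csf1r and Cd68 were tested. Csf1r was higher in untreated Lkb1-/- than in WT cells (log2 fold change 5.07), and Cd68 was not called. Csf1r could pass the filter only, or mainly, through groups where it is high. The 4 endothelial markers summed to 0.37 to 0.678 CPM in WT and 2.06 to 3.85 CPM in the other lines without overlap, nearly all of it Kdr, which was higher in Lkb1-/- cells (log2 fold change 2.73). The 5 epithelial markers summed to 0.207 to 0.73 CPM in WT and 0.11 to 0.441 CPM in the other lines, and the tested one, Epcam, was higher in Lkb1-/- cells (log2 fold change 2.77), with at most 2 counts in an untreated WT library. Epcam passed the filter through groups other than untreated WT. The part of these marker differences in the results was not tested. In such bulk libraries, fewer cells with a transcript and less of it in each cell cannot be told apart.

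Of the 32 members, 20 passed the filter on low counts and were tested, and 12 did not. Among the 20, 6 had a mean count under 10 in untreated WT cells (Pde1a, Pde1b, Pde3b, Pde8b, Pde10a and Prkar1b) and passed through other groups. Between untreated Lkb1-/- and WT cells, 11 of the 20 were higher and 6 were lower at a Benjamini-Hochberg adjusted p under 0.05 in edgeR's quasi-likelihood test, out of 17522 tested genes, of which 55.9% were called, 30.1% higher and 25.8% lower. Under IL-1β 10 were higher and 6 lower, where 57.4% of all genes were called, 30.2% higher and 27.1% lower. The 6 members with few WT counts could pass the filter only where they were high, and 4 of them were among those called higher without and 3 with IL-1β. Of the other 14, 7 were higher and 6 lower in both conditions, with a median log2 fold change of 0.21 without and 0.14 with IL-1β, beside 0.04 and 0.03 over all tested genes. Fold changes below are on the log2 scale and compare the first named line with the second, and CPM values compare a gene between libraries, not genes with each other.

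**Figure D1:**
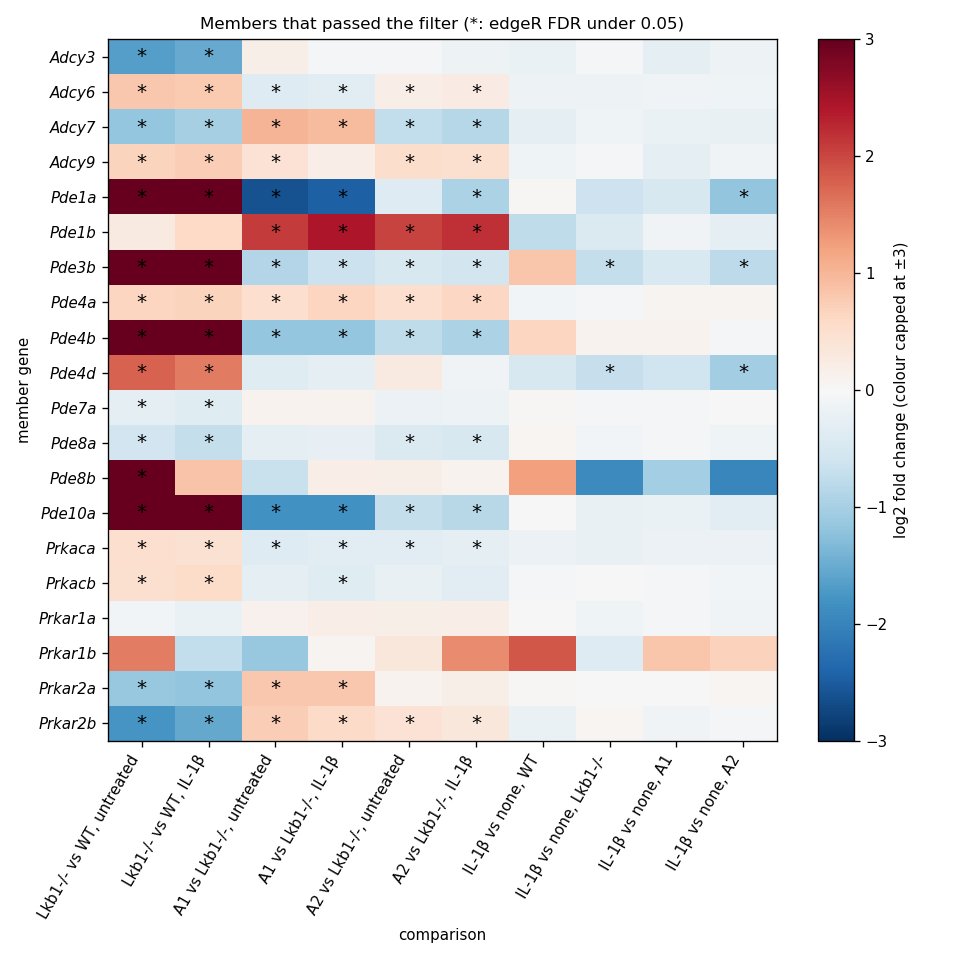
Log2 fold change of the 20 tested members (rows) in 10 comparisons (columns), with colour capped at ±3 and an asterisk where the edgeR adjusted p was under 0.05. The columns of Lkb1-/- against WT hold 17 and 16 asterisks, and the 4 IL-1β columns hold 0, 2, 0 and 3.

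CREB binds the cAMP response element, so the sequence around the start of each member was searched for the core of that element. RefSeq start windows of 300 bases (250 before and 50 after the start, assembly GRCm38.p6) were found for 27 of the 32 members, 64 windows in all. The core TGACG, or its reverse complement CGTCA, was in 15 of the 64 windows (23.4%), beside 20.8% of all 32851 windows. Counted by gene, 13 of the 27 members (48.1%) had it in at least 1 window, beside 23.0% of all 27025 genes, and the members have more windows per gene. The full palindrome TGACGTCA, which holds the core on both strands, was in 2 of the 64 windows (3.12%), both of Prkar1a, beside 1.79% of all windows. These 2 windows overlap and hold the same site, so it is 1 palindrome counted in both. Counted by gene, 1 of the 27 members (3.7%) had it, beside 2.03% of all genes. A match is a description of the letters, and which start the cells used was not measured. The windows need not cover the annotated start of a gene. Those of Pde10a begin at 8801495 and 8849735 on chromosome 17, inside a gene annotated from 8525372, and the first of Pde4b begins at 102421305, inside a gene annotated from 102087543. The runs below go from 140 bases before the start to the tenth base from it, on build GRCm38, with each core in capitals. Of the 13 members with a core, Pde4b, Adcy7, Prkaca, Prkar2a and Prkar1a are shown because the comparisons below dwell on them, and Pde10a because it had 0 counts in all WT libraries and neither of its windows holds the core.
Pde4b, chr4:102421415-102421564, plus strand: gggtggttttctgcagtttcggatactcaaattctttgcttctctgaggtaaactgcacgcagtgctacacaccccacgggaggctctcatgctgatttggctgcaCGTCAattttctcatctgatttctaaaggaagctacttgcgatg
Pde10a, chr17:8801605-8801754, plus strand: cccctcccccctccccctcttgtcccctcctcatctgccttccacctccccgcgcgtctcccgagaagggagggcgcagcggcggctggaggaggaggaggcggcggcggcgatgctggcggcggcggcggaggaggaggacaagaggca
Adcy7, chr8:88282852-88283001, plus strand: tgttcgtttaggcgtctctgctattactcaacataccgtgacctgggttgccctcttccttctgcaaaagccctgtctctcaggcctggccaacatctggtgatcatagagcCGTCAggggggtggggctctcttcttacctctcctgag
Prkaca, chr8:83972838-83972987, plus strand: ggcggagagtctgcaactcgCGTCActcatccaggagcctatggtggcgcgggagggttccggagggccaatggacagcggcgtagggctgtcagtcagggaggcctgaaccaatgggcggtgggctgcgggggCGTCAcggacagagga
Prkar2a, chr9:108692003-108692152, plus strand: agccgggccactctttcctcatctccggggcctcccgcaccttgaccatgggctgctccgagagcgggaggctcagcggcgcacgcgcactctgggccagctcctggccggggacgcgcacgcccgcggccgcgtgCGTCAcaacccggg
Prkar1a, chr11:109650809-109650958, plus strand: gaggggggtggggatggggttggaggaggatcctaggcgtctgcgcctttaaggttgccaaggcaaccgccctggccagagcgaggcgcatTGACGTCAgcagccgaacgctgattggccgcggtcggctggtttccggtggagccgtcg
In the Pde4b window the core begins 34 bases before the start, in Adcy7 28 bases and in Prkar2a 4 bases before it. Prkaca holds 2 cores, beginning 120 and 6 bases before the start, and the palindrome of Prkar1a begins 49 bases before it. The run shown is 1 of 4 windows of Pde4b, 1 of 3 of Adcy7 and 1 of 2 of Prkaca, whose other windows hold no core, the single window of Prkar2a and 1 of 6 of Prkar1a, of which 3 hold it. The other members with a core are Adcy9, Pde1a, Pde2a, Pde4a, Pde8a, Pde8b, Prkacb and Prkar1b. Pde3b and Adcy6 have no entry in the window table.

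Among the phosphodiesterases, the genes of PDE3B, PDE10A and PDE1A were at or near 0 in WT cells and were read in every Lkb1-/- library, and that of PDE4B was far higher in Lkb1-/- cells. Of the 10 tested phosphodiesterases, 7 were higher and 2 lower in untreated Lkb1-/- than in WT cells, where 55.9% of all genes were called, 30.1% higher and 25.8% lower. Pde1a, Pde3b, Pde8b and Pde10a, 4 of the 7, are among those with few WT counts. Pde3b (chr7:114415281-114539251), which encodes an enzyme best known for lowering cAMP downstream of insulin in fat and liver, had 0, 1 and 0 counts in untreated WT libraries. It was at 215, 266.7 and 292.4 CPM in untreated Lkb1-/- libraries, 126.4, 141.6 and 151.5 in A1 and 149.1, 198.5 and 204.1 in A2. No WT library reached any library of the other lines. The summed counts, 33272 against 1, gave a ratio of 32600 with a 95% counting interval of 5850 to 1290000, which covers counting error only. With IL-1β the counts were 20888 against 2, a ratio of 9690 (2680 to 80000).

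Pde10a (chr17:8525372-8986648), whose product is known for its high level in the striatum of the brain, had 0 counts in all 6 WT libraries, where 3 counts in a library would be 0.067 to 0.0782 CPM. Untreated libraries held 48.1, 54.5 and 56.7 CPM in Lkb1-/- cells, 14.4, 15.2 and 15.5 in A1 and 26.8, 32.2 and 37.5 in A2. These 3 sets did not overlap, and A1 was the lowest. Against 3 counts over the untreated WT group, Lkb1-/- cells were at least 2240-fold higher, A1 at least 634-fold and A2 at least 1350-fold, and under IL-1β Lkb1-/- cells were at least 1850-fold higher.

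Pde4b (chr4:102087543-102607259) encodes a cAMP-specific enzyme that in leukocytes limits cAMP during inflammatory signalling. It was at 2.88, 3.91 and 4.46 CPM in untreated WT libraries and at 183.1, 198.3 and 200.9 in Lkb1-/- libraries. The A1 libraries held 78.7, 92.8 and 88.97 CPM and the A2 libraries 103.3, 122.3 and 115.9. The DKO libraries lay between WT and Lkb1-/- cells with no overlap on either side. The difference between Lkb1-/- and WT cells was a log2 fold change of 5.70 (SE 0.18, adjusted p 3.1e-16) without IL-1β and 5.16 (adjusted p 7.6e-16) with it. Of the 5 leukocyte markers, Ptprc and Adgre1 stayed at 0 or 1 count in every library, while Csf1r was higher in Lkb1-/- cells, at a mean of 1.68 CPM against 0.0464 in untreated WT. Csf1r could pass the filter only, or mainly, through groups where it is high, and Cd68, the other tested marker, was not called.

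Pde4d, which encodes an enzyme known to associate with β-adrenergic signalling complexes, was at 42.1, 47.1 and 46.3 CPM in untreated WT and 130.8, 156.7 and 170.9 in Lkb1-/- libraries. The groups did not overlap (log2 fold change 1.76, SE 0.17, adjusted p 1.3e-08), and under IL-1β the log2 fold change was 1.56 (adjusted p 7.9e-08). Pde4a rose by less, from 19.6, 20.5 and 21.5 CPM in WT to 33.2, 31.7 and 31.6 in Lkb1-/- libraries (log2 fold change 0.65, SE 0.06, adjusted p 1.8e-08). The fourth gene of the family, Pde4c, was among those not tested.

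Pde1a, which encodes a phosphodiesterase stimulated by calcium and calmodulin, had 0, 1 and 0 counts in untreated WT libraries and 96, 100 and 107 in Lkb1-/- libraries. The ratio was 297 (95% counting interval 52.8 to 11800), at a level of only 2.17, 2.32 and 2.55 CPM in Lkb1-/- cells. Its relative Pde1b was at 0.0670, 0.138 and 0.183 CPM in WT, 0.159, 0.0928 and 0.214 in Lkb1-/-, 0.488, 0.864 and 0.666 in A1 and 0.463, 0.834 and 0.638 in A2 libraries. WT and Lkb1-/- libraries overlapped (log2 fold change 0.28, SE 0.58, adjusted p 0.71), and both DKO lines stood above both. Pde8b, whose product has a high affinity for cAMP and is known from the adrenal and thyroid, had 0, 2 and 0 counts in WT and 13, 9 and 16 in Lkb1-/- libraries without IL-1β. That ratio was 18.6 (4.81 to 159), but with reads of both strands counted the log2 fold change fell to 0.47 (adjusted p 0.45), and under IL-1β it was 0.86 (adjusted p 0.41).

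Pde8a and Pde7a, the high-affinity cAMP phosphodiesterases that were the most abundant of the family per length in WT cells, were the members of the family that fell. Pde8a went from 67.8, 75.01 and 81.6 CPM in untreated WT to 44.2, 53.6 and 52.2 in Lkb1-/- libraries, with no overlap (log2 fold change −0.58, SE 0.14, adjusted p 0.001), and was at 38.95, 42.5 and 43.2 in A1 and 30.7, 40.4 and 40.7 in A2. Pde7a ranged from 81.5 to 92.9 CPM in WT and from 67.3 to 75.3 in Lkb1-/- libraries (log2 fold change −0.28, SE 0.10, adjusted p 0.029). The Pde7a call was lost without Lkb1-/- untreated replicate 1 (−0.24, adjusted p 0.1) or replicate 2 (−0.27, adjusted p 0.066), and it held under IL-1β (−0.37, adjusted p 0.0049).

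**Figure D2:**
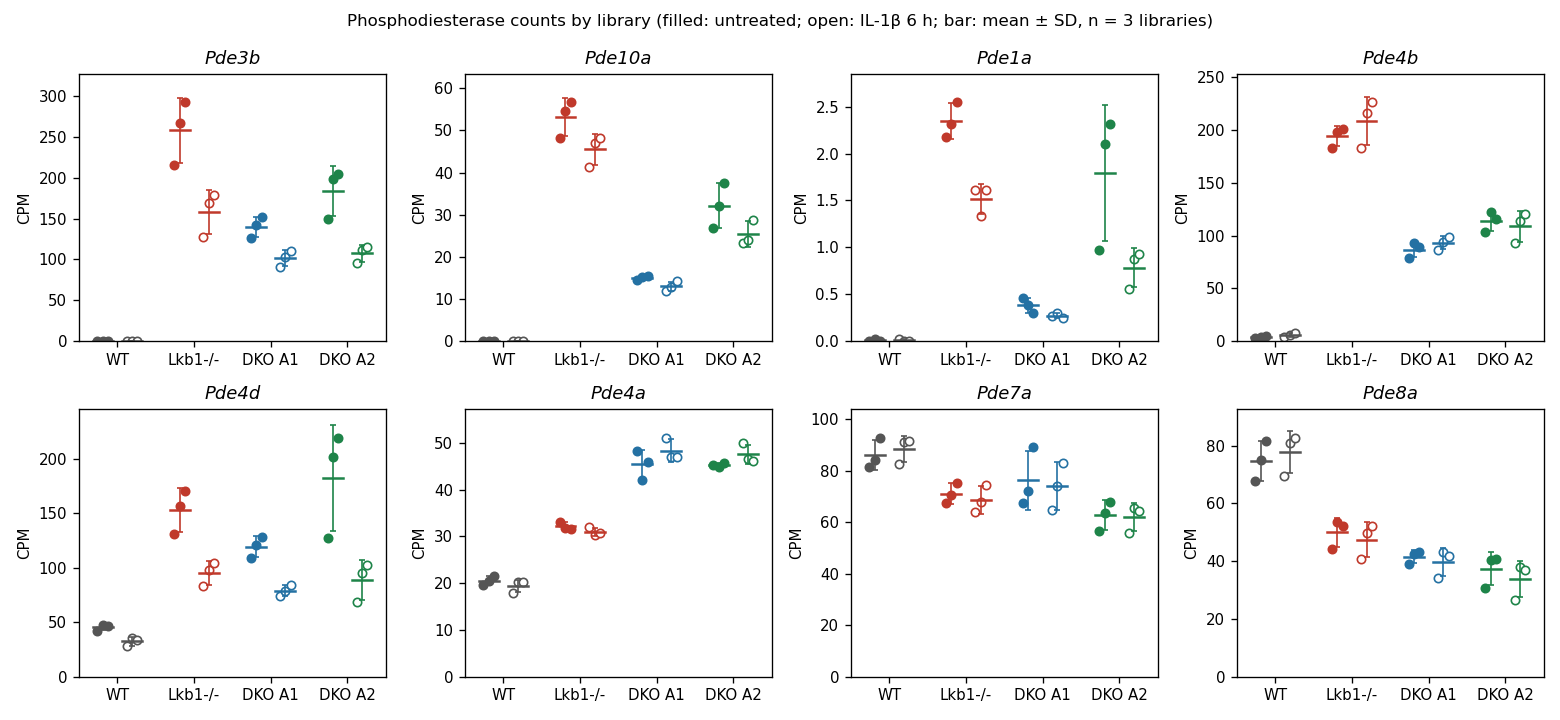
CPM of 8 phosphodiesterase genes in each library by line, filled for untreated and open for IL-1β, with the mean and SD of 3 libraries and a separate axis from 0 for each gene. Pde3b, Pde10a, Pde1a and Pde4b lie on or near the axis in WT cells and above it in the other lines, while Pde7a and Pde8a are highest in WT cells.

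Per exonic length, the phosphodiesterase transcripts of the 16 members together were at 36.4 ± 2.83 RPKM (reads per kilobase of exon in a library scaled as for CPM, mean ± SD, n = 3) in untreated WT, 89.8 ± 8.82 in Lkb1-/-, 60.98 ± 4.50 in A1 and 72.4 ± 10.8 in A2 cells. No WT library overlapped a library of the other lines in this sum, which ran from 33.6 to 39.3 RPKM in WT and from 56.4 to 97.0 elsewhere without IL-1β. The mix differed as well as the total. Pde7a and Pde8a made up 81.2 ± 0.584% of the sum in WT and 24.03 ± 0.634% in Lkb1-/- cells, where the PDE4 genes made up 39.4 ± 1.17% and Pde3b 31.4 ± 1.79%. In A1 and A2 cells Pde3b was 25.1 ± 0.469% and 27.8 ± 0.487% of the sum. In WT cells the PDE4 share was 18.7 ± 0.575%, most of it Pde4d and Pde4a. These are shares of transcripts, and enzyme activity was not measured.

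**Figure D3:**
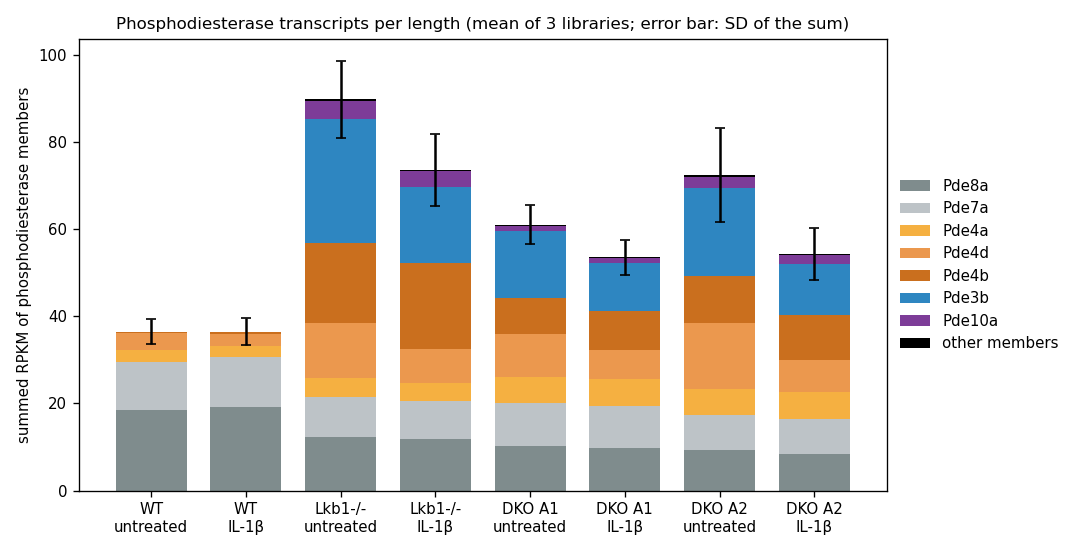
Stacked mean RPKM of the phosphodiesterase members in the 8 groups, with the SD of the sum over 3 libraries. The WT bars stand at 36.4 and 36.4 RPKM and are mostly Pde8a and Pde7a, and the untreated Lkb1-/- bar stands at 89.8 RPKM with Pde3b and Pde4b as large blocks.

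The adenylyl cyclases showed no such difference in total. Their RPKM sum was 22.7 ± 1.85 in untreated WT, 21.6 ± 1.26 in Lkb1-/-, 23.7 ± 2.25 in A1 and 22.3 ± 1.70 in A2 cells, and the libraries of the 4 lines overlapped. Within it, the 4 tested cyclases differed between Lkb1-/- and WT cells, 2 up and 2 down, where 55.9% of all genes were called. Adcy6, which encodes a cyclase inhibited by calcium, rose from 53.6, 57.95 and 57.5 CPM in WT to 93.8, 100 and 103 in Lkb1-/- libraries (log2 fold change 0.81, SE 0.06, adjusted p 5.7e-10). Adcy9, which encodes a cyclase only weakly responsive to forskolin, rose from 3.91, 3.80 and 4.46 to 5.79, 7.10 and 6.55 CPM (log2 fold change 0.68, SE 0.11, adjusted p 2.7e-05). In both cases the lowest Lkb1-/- library stood above the highest WT library.

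Adcy7 and Adcy3 fell. Adcy7 (chr8:88272403-88329962) encodes the calcium-insensitive cyclase that is stimulated by Gβγ and is prominent in immune cells. It was at 65.5, 69.7 and 83.1 CPM in untreated WT and 32.4, 28.5 and 37.3 in Lkb1-/- libraries (log2 fold change −1.15, SE 0.16, adjusted p 3.7e-06). Adcy3, which encodes the cyclase of olfactory and other primary cilia, was at 17.6, 15.6 and 19.2 CPM in WT and 5.07, 5.38 and 6.24 in Lkb1-/- libraries (log2 fold change −1.65, SE 0.17, adjusted p 2.8e-08). The WT and Lkb1-/- libraries did not overlap for either gene. Of the RPKM sum, Adcy7 was 47.5 ± 2.08% in WT and 22.5 ± 2.22% in Lkb1-/- cells, and Adcy6 was 36.7 ± 2.23% and 67.5 ± 1.73%. Under IL-1β the 4 differences kept their direction and their call, with log2 fold changes of −1.51 for Adcy3, −1.01 for Adcy7, 0.80 for Adcy6 and 0.74 for Adcy9.

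**Figure D4:**
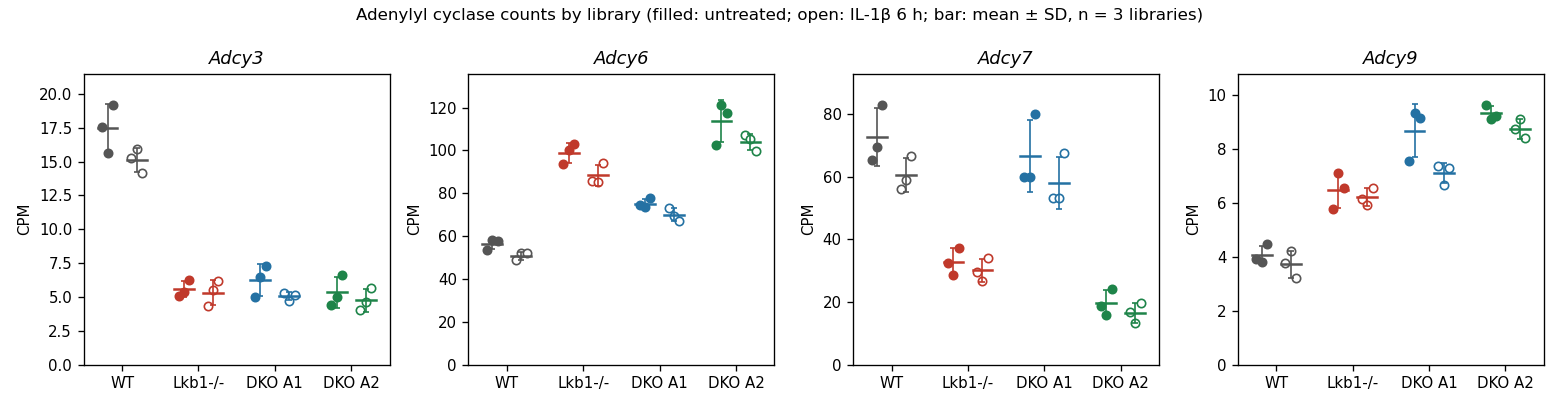
CPM of the 4 tested adenylyl cyclases in each library by line, filled for untreated and open for IL-1β, with mean and SD of 3 libraries. Adcy7 was lowest in A2 at 13.4 to 24.1 CPM, and its A1 libraries, at 53.1 to 80.01 CPM, overlapped those of WT, at 56.2 to 83.1 CPM.

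For PKA, transcripts of both catalytic subunits were higher and those of both type II regulatory subunits were lower in Lkb1-/- than in WT cells. Prkaca, the gene of the main catalytic subunit Cα, ranged from 119.2 to 133.7 CPM in untreated WT and 168 to 193.2 in Lkb1-/- libraries (log2 fold change 0.51, SE 0.10, adjusted p 2.2e-04). Prkacb, which encodes Cβ, ranged from 108.5 to 122.2 and 146.5 to 170.9 CPM (log2 fold change 0.49, SE 0.13, adjusted p 0.0023). The regulatory subunit RIIα gene Prkar2a (chr9:108689314-108750436) was at 272.9, 254.1 and 232 CPM in WT and 122.9, 110.6 and 109.5 in Lkb1-/- libraries (log2 fold change −1.15, SE 0.08, adjusted p 1.7e-10). The WT and Lkb1-/- libraries did not overlap for any of these 3 genes. They did not overlap for Prkar2b, the gene of RIIβ, either, which was at 127.6, 135 and 130.3 CPM in WT and 38.9, 37.9 and 38.5 in Lkb1-/- libraries (log2 fold change −1.77, SE 0.09, adjusted p 8.2e-13). Both type II subunits are the forms that A-kinase anchoring proteins bind best.

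Of the type I regulatory genes, Prkar1a moved less and Prkar1b had few counts. Prkar1a, the gene of RIα and the most abundant PKA transcript here per length, ranged from 280.4 to 440.4 CPM over all 24 libraries and was not called between untreated Lkb1-/- and WT cells (log2 fold change −0.08, SE 0.09, adjusted p 0.51). Under IL-1β it was at −0.20 (adjusted p 0.077), and in the blocked fit, which has a term for the replicate number, at −0.20 (adjusted p 0.0023). Without the block, Prkar1a was also called there with unstranded counts (−0.25, adjusted p 0.037). The same held without treated Lkb1-/- replicate 2 (−0.25, adjusted p 0.048) or treated WT replicate 3 (−0.23, adjusted p 0.042). Prkar1b, a mainly neuronal form, had 3, 6 and 1 counts in untreated WT and 9, 13 and 8 in Lkb1-/- libraries (log2 fold change 1.53, SE 0.81, adjusted p 0.12). In this fit its call was for A2 against WT alone, where the A2 libraries held 4, 10 and 26 counts (log2 fold change 1.86, SE 0.79, adjusted p 0.047). Other fits lost that call or made others, and without the A2 library of 26 counts the value was 0.91 (adjusted p 0.39).

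In RPKM, the regulatory transcripts per catalytic transcript numbered 2.52 ± 0.189 (n = 3) in untreated WT, 1.21 ± 0.0362 in Lkb1-/-, 1.95 ± 0.0248 in A1 and 1.70 ± 0.127 in A2 cells. WT libraries ran from 2.36 to 2.73 and Lkb1-/- libraries from 1.17 to 1.24 without overlap, and both DKO lines lay between. The type II share of regulatory transcripts was 46.5 ± 0.840% in WT and 25.7 ± 2.51% in Lkb1-/- cells, 35.2 ± 1.997% in A1 and 26.4 ± 2.26% in A2. Prkaca made up between 76.8% and 80.2% of catalytic transcripts in every library. The smooth muscle marker Acta2 was also lower in Lkb1-/-, A1 and A2 cells than in WT, like Prkar2a, Prkar2b and Adcy3, while Cnn1 and Des, the other tested markers of that list, were higher without IL-1β in all 3 lines than in WT (log2 fold change 0.75 and 1.94 in Lkb1-/- cells), and Myh11 had at most 11 counts in a library.

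**Figure D5:**
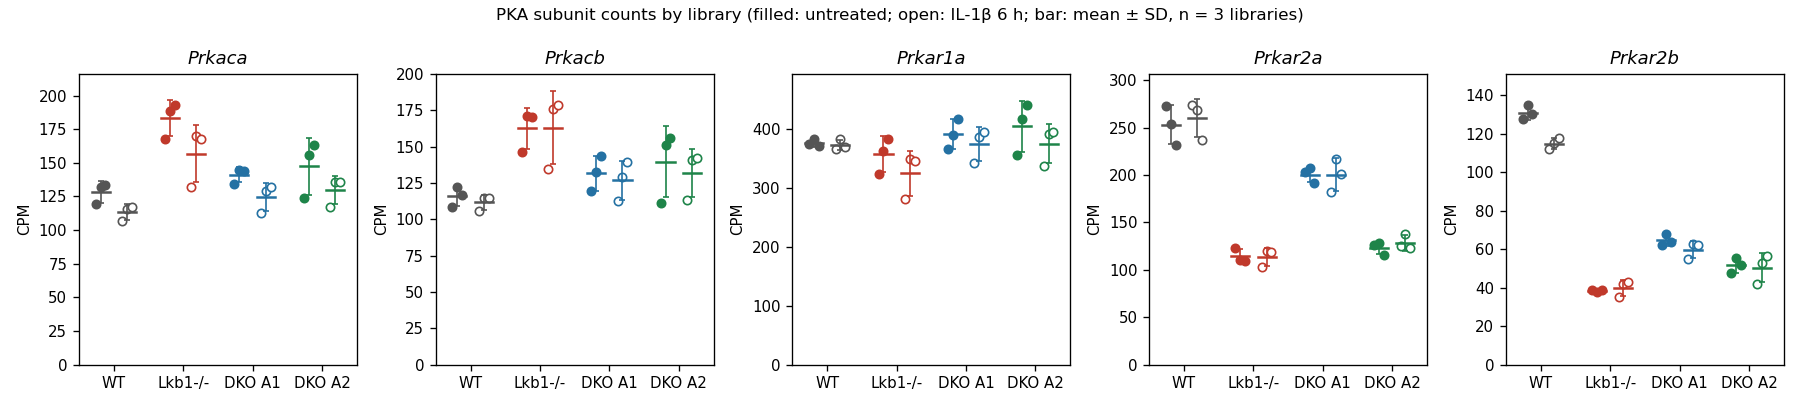
CPM of 5 PKA subunit genes in each library by line, filled for untreated and open for IL-1β, with mean and SD of 3 libraries. Prkar2a and Prkar2b have their lowest means in Lkb1-/- cells, where libraries ran over 102.6 to 122.9 and 34.97 to 43.01 CPM, and Prkar1a ran from 280.4 to 440.4 CPM over all libraries.

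The additional loss of Crtc2 was compared with Lkb1-/- cells for each DKO line. These comparisons share the Lkb1-/- libraries with the comparison against WT, so the values are given side by side. Without IL-1β, A1 had 6 tested members higher and 6 lower than Lkb1-/- cells, where 35.3% of all genes were called, 18.9% higher and 16.4% lower. A2 had 5 higher and 6 lower, where 32.3% of all genes were called, 17.1% higher and 15.1% lower. The higher members of both lines include Pde1b, which could pass the filter only through the DKO lines. Under IL-1β, A1 had 5 higher and 7 lower, where 36.7% of all genes were called, 19.4% higher and 17.3% lower, and A2 also had 5 higher and 7 lower, where 32.8% of all genes were called, 17.1% higher and 15.8% lower. The median log2 fold change over the members was −0.29 in A1 and 0.02 in A2 without IL-1β, beside 0.02 over all genes in each.

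Pde4b, Pde10a and Pde3b were lower in both DKO lines than in Lkb1-/- cells, and stayed far above WT. For Pde4b the log2 fold change was −1.16 (adjusted p 2.6e-06) in A1 and −0.77 (adjusted p 3.1e-04) in A2, and 4.54 and 4.93 against WT. Pde10a was at −1.82 (adjusted p 7.5e-09) in A1 and −0.72 (adjusted p 1.3e-04) in A2 against Lkb1-/- cells. Pde3b was at −0.88 (adjusted p 5.8e-05) in A1 and −0.49 (adjusted p 0.012) in A2, and the A2 call was lost without Lkb1-/- untreated replicate 3 (−0.39, adjusted p 0.07). With IL-1β all 3 genes were also called lower in both lines, Pde4b by −1.16 and −0.94, Pde10a by −1.81 and −0.84 and Pde3b by −0.64 and −0.56 in A1 and A2.

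Other phosphodiesterases went the other way or differed between the lines. Pde4a was higher in both, at 48.3, 42.2 and 46.0 CPM in A1 and 45.2, 44.8 and 45.7 in A2, above every Lkb1-/- library (0.50, adjusted p 2.6e-06, and 0.49, adjusted p 4.3e-06). Pde1b was also higher in both (2.10, adjusted p 0.0016, and 2.03, adjusted p 0.0023), at counts of 20, 36 and 29 in A1 and 23, 36 and 29 in A2 against 7, 4 and 9 in Lkb1-/- libraries. Pde1b could pass the filter only through the DKO lines, where it is high, so these calls carry that limit. Pde1a had 19, 16 and 13 counts in A1 and 48, 91 and 105 in A2, lower than Lkb1-/- cells in A1 (−2.61, adjusted p 2.5e-06) and overlapping them in A2 (−0.39, adjusted p 0.33), and with IL-1β it was lower in A2 as well (−0.95, adjusted p 0.02), a call lost without A2 replicate 1 or Lkb1-/- replicate 1 or 3 (−0.73, adjusted p 0.092, −0.90, adjusted p 0.05, and −0.90, adjusted p 0.055). Pde4d was at 108.8, 120.9 and 128.2 CPM in A1 (−0.36, adjusted p 0.097) and 127.4, 201.4 and 219.5 in A2 (0.26, adjusted p 0.25). In the fit blocked on replicate number, Pde4d was called lower in A1 (−0.35, adjusted p 0.0012) and higher in A2 (0.24, adjusted p 0.021), as it was with no filter on low counts, and without A2 replicate 1 the A2 value was 0.47 (adjusted p 0.0087). Pde8a was called lower in A2 (−0.42, adjusted p 0.021) and not in A1 (−0.27, adjusted p 0.14), where the block gave −0.26 (adjusted p 5.6e-04). Unblocked fits with no filter (−0.28, adjusted p 0.017) or with only the compared groups (−0.28, adjusted p 0.015) also called it in A1. Leaving out A2 replicate 1 or Lkb1-/- replicate 2 or 3 took the Pde8a call in A2 away (−0.29, adjusted p 0.1, −0.37, adjusted p 0.084, and −0.39, adjusted p 0.066). Pde7a was called in neither line against Lkb1-/- cells, with 0.10 in A1 and −0.18 in A2, and the block called it in A2 (−0.18, adjusted p 0.005).

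The 2 DKO lines differed from each other in Adcy7 and Adcy6. Adcy7 was at 59.9, 60.1 and 80.01 CPM in untreated A1 libraries, which overlapped WT (−0.13, adjusted p 0.53), and at 18.7, 15.9 and 24.1 in A2 libraries, all below Lkb1-/- cells. Against Lkb1-/- cells it was 1.02 (adjusted p 4.6e-05) in A1 and −0.74 (adjusted p 0.0015) in A2, and A2 against A1 differed by −1.77 (adjusted p 9.6e-08). Adcy6 was at 74.6, 73.4 and 77.5 CPM in A1 and 102.4, 121.3 and 117.4 in A2, −0.40 (adjusted p 4.9e-05) and 0.20 (adjusted p 0.018) against Lkb1-/- cells, with A2 above A1 by 0.60 (adjusted p 4.4e-07). The small rise of Adcy6 in A2 was not called without Lkb1-/- replicate 1 (0.16, adjusted p 0.094) or A2 replicate 2 (0.17, adjusted p 0.05), with no filter (0.18, adjusted p 0.16) or with only the compared groups (0.19, adjusted p 0.087), and the last also lost it with IL-1β (0.21, adjusted p 0.057). Adcy9 was higher in both lines without IL-1β, at 7.56, 9.36 and 9.14 CPM in A1 and 9.65, 9.12 and 9.25 in A2 (0.42, adjusted p 0.0044, and 0.53, adjusted p 8.2e-04). The A1 call was lost with no filter on low counts (0.41, adjusted p 0.065), and with IL-1β Adcy9 was not called in A1 (0.19, adjusted p 0.19). Adcy3 was at 4.97, 6.50 and 7.26 CPM in A1 and 4.39, 4.96 and 6.65 in A2, libraries that overlapped Lkb1-/- cells in both lines (0.17, adjusted p 0.48, and −0.06, adjusted p 0.82) and stayed below WT.

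Among the PKA genes, Prkar2b was higher in both DKO lines than in Lkb1-/- cells and Prkar2a only in A1 by this test. Prkar2b was at 62.3, 68.05 and 63.5 CPM in A1 and 47.5, 55.5 and 51.6 in A2 (0.75, adjusted p 1.9e-06, and 0.42, adjusted p 0.0012). Prkar2a was at 202.9, 207 and 191.4 CPM in A1 (0.81, adjusted p 2.2e-07) and 126, 128.2 and 115.2 in A2 (0.11, adjusted p 0.36), and A2 against A1 differed by −0.70 (adjusted p 1.7e-06). Every A1 and A2 library of both genes stayed below the untreated WT libraries. Prkaca was lower than in Lkb1-/- cells in A1 (−0.38, adjusted p 0.0065) and A2 (−0.31, adjusted p 0.023), and the A2 call was lost without A2 replicate 1 or Lkb1-/- replicate 2 or 3 (−0.19, adjusted p 0.11, −0.29, adjusted p 0.073, and −0.28, adjusted p 0.085). Prkacb was at −0.30 (adjusted p 0.068) in A1 and −0.22 (adjusted p 0.2) in A2 without the block and at −0.30 (adjusted p 1.5e-04) and −0.23 (adjusted p 0.0024) with it, and some unblocked alternatives called it too, DESeq2 among them in A1 (−0.31, adjusted p 0.045) and the fit with no filter in both lines. For Prkar1a the values were 0.13 (adjusted p 0.3) and 0.18 (adjusted p 0.15) without the block, and 0.13 (adjusted p 0.048) and 0.18 (adjusted p 0.0097) with it, the A2 call also being made with upper quartile scaling and without A2 replicate 1 (0.27, adjusted p 0.015). Between the DKO lines, 6 members were higher and 4 lower in A2 than in A1 without IL-1β, where 32.5% of all genes were called, 15.8% higher and 16.7% lower. Of these, Pde4b and Pde3b, higher in A2, and Pde7a, lower, lost their call without A2 replicate 2 (0.34, adjusted p 0.11, 0.34, adjusted p 0.093, and −0.29, adjusted p 0.061). Each was also lost in other alternatives. With IL-1β 4 members were higher and 3 lower in A2 than in A1, where 30.7% of all genes were called, 15.1% higher and 15.6% lower. There the calls of Adcy9, higher in A2, and Prkar2b, lower, were lost in several alternatives.

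Both DKO lines were also set against WT without IL-1β. A1 had 10 members higher and 4 lower, where 55.4% of all genes were called, 30.3% higher and 25.1% lower. A2 had 11 higher and 6 lower, where 60.6% of all genes were called, 32.7% higher and 27.9% lower. Of the higher members, 5 in A1 and 6 in A2 are those with few WT counts, which could pass the filter only where they were high. Pde3b gave count ratios of 17700 in A1 (95% counting interval 3180 to 700000) and 23100 in A2 (4150 to 913000). Adcy9 was at 1.10 and 1.20 and Pde4a at 1.15 and 1.14 in A1 and A2, above the 0.68 and 0.65 of Lkb1-/- cells. Prkaca, by contrast, was not called against WT in A1 (0.14, adjusted p 0.27) or A2 (0.20, adjusted p 0.1). The replicate block did call it in both (0.14, adjusted p 0.016, and 0.19, adjusted p 0.0013), as it did Prkacb (0.18, adjusted p 0.0091, and 0.26, adjusted p 4.7e-04) and, in A1, Pde7a (−0.18, adjusted p 0.0038). Upper quartile scaling, without the block, also called Prkaca (0.22, adjusted p 0.012, and 0.28, adjusted p 0.0022) and Prkacb in both lines, and Pde7a in A1 was −0.30 (adjusted p 0.02) without A1 replicate 3.

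In the fit of all libraries with TMM scaling and no replicate block, the members called for IL-1β at 6 h were phosphodiesterases that went down, and other fits added calls in both directions. In WT cells the edgeR test called 0 of the 20 members, with 5 at an unadjusted p under 0.05 and 1 called by DESeq2 (Pde4b, higher), where 2.26% of all genes were called, 1.53% higher and 0.731% lower. Lkb1-/- cells had 2 lower members, where 4.74% of all genes were called, 2.65% higher and 2.09% lower. In A1 cells edgeR called 0, with 3 at an unadjusted p under 0.05 and 1 called by DESeq2, where 1.99% of all genes were called, 1.2% higher and 0.788% lower. In A2 cells 3 were lower, where 5.68% of all genes were called, 2.81% higher and 2.86% lower. Since same-numbered libraries deviated together, a fit blocked on that number was also made, in which 4 members were called in WT, 6 in Lkb1-/-, 3 in A1 and 7 in A2 cells, where 9.3%, 14.8%, 9.61% and 17.9% of all genes were called. Pde4b in WT, 1 of these 20 calls, was upward, and the calls include Prkaca, Adcy7 and Adcy6 beside phosphodiesterases.

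Pde4d under IL-1β was at 27.8, 35.04 and 33.95 CPM in WT, 83.3, 97.8 and 104.2 in Lkb1-/-, 73.9, 78.7 and 84.5 in A1 and 68.2, 94.8 and 102.7 in A2 libraries. In every line the highest treated library was below the lowest untreated library of the same line. The log2 fold change was −0.48 (adjusted p 0.19) in WT, −0.68 (adjusted p 0.015) in Lkb1-/-, −0.59 (adjusted p 0.071) in A1 and −1.04 (adjusted p 2.9e-04) in A2, and with the block −0.49 (adjusted p 7.6e-04) in WT and −0.59 (adjusted p 4.4e-05) in A1. The Lkb1-/- call was lost without treated replicate 1 or untreated replicate 2 or 3 (−0.60, adjusted p 0.087, −0.67, adjusted p 0.056, and −0.60, adjusted p 0.094).

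Pde3b under IL-1β was at 127.5, 168.9 and 178.5 CPM in Lkb1-/-, 91.01, 103.3 and 110.5 in A1 and 95.9, 112 and 114.8 in A2 libraries, again below every untreated library of the same line. The log2 fold change was −0.70 (adjusted p 0.0039) in Lkb1-/-, −0.46 (adjusted p 0.13) in A1 and −0.77 (adjusted p 0.0016) in A2, and −0.46 (adjusted p 8.3e-06) in A1 with the block. In WT cells it had 0, 0 and 2 counts with and 0, 1 and 0 without IL-1β, too few to compare. Pde1a fell in A2 from 48, 91 and 105 to 25, 41 and 38 counts (−1.19, adjusted p 0.019), a call lost without A2 untreated replicate 2 or 3 or treated replicate 1 (−1.05, adjusted p 0.098, −0.96, adjusted p 0.12, and −0.98, adjusted p 0.093).

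Pde4b in WT cells was at 3.999, 6.16 and 7.34 CPM with IL-1β, higher than without it in 3 of 3 replicate pairs, although the groups overlapped. The log2 fold change of 0.64 (adjusted p 0.073) passed the threshold with the block (0.64, adjusted p 7.1e-04), and also with DESeq2, upper quartile scaling or no filter on low counts. In the other lines Pde4b was at 183, 216.1 and 226.3 CPM in Lkb1-/-, 86.6, 94.3 and 98.8 in A1 and 92.6, 113.4 and 120.1 in A2 libraries with IL-1β, overlapping the untreated libraries in each (log2 fold changes 0.10, 0.10 and −0.07). The difference of the responses, Lkb1-/- minus WT, was −0.54 (adjusted p 0.79), and −0.54 (adjusted p 0.038) with the block.

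The remaining IL-1β calls in the blocked fit were not made in the unblocked fit used above. Prkaca was at −0.18 (adjusted p 0.025) in WT, −0.23 (adjusted p 0.0018) in Lkb1-/-, −0.18 (adjusted p 0.019) in A1 and −0.18 (adjusted p 0.011) in A2 cells. Adcy7 was at −0.26 (adjusted p 0.013) in WT and −0.23 (adjusted p 0.028) in A2, Adcy6 at −0.16 (adjusted p 0.048) in Lkb1-/-, and Pde10a at −0.22 (adjusted p 0.024) in Lkb1-/- and −0.33 (adjusted p 0.0012) in A2. Pde8b, with 13, 9 and 16 counts without and 4, 3 and 3 with IL-1β in Lkb1-/- libraries, was at −1.92 (adjusted p 0.033) there and −1.98 (adjusted p 0.018) in A2. It could pass the filter only through untreated groups, where it is high, so these calls carry that limit. Pde8b was also called in both lines by edgeR's newer quasi-likelihood fit, and Pde10a in A2 with upper quartile scaling (−0.34, adjusted p 0.024). In the unblocked fit with the filter on low counts, edgeR called 0 members for a difference of responses: Lkb1-/- minus WT had 3 at an unadjusted p under 0.05 (0.245% of all genes called), A1 minus Lkb1-/- had 0 (0.0285%) and A2 minus Lkb1-/- had 0 (0%), and DESeq2 called 0 in each.

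The RPKM sum of the phosphodiesterases under IL-1β was 36.4 ± 3.09 in WT, 73.5 ± 8.33 in Lkb1-/-, 53.5 ± 4.09 in A1 and 54.3 ± 6.05 in A2 cells. In A2 cells the treated libraries, 47.3 to 58.5 RPKM, lay below the untreated ones, 59.97 to 79.9, while treated and untreated libraries overlapped in the other lines. Pde3b and Pde4d are the members with the larger drops in the Lkb1-/- and A2 sums.

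The 12 members that were not tested were 6 cyclases (Adcy1, Adcy2, Adcy4, Adcy5, Adcy8 and Adcy10) and 6 phosphodiesterases (Pde1c, Pde2a, Pde3a, Pde4c, Pde7b and Pde11a). None had more than 19 counts in a library, the highest being Pde1c in A1 cells with IL-1β, and Pde3a, the close relative of Pde3b, had 0 counts in all 24 libraries. A count of 0 allows up to 0.0604 to 0.0782 CPM in a library, taken as 3 counts. Pde1c held 5, 19 and 17 counts there and 1, 1 and 5 in untreated A1 libraries. Differences in these 12 genes were not tested.

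Around these members, 7 further lists of the pathway were counted between untreated Lkb1-/- and WT cells. As given above, 55.9% of all genes were called in that comparison and 57.4% in the one with IL-1β, so the shares called in these lists are to be read against those. Of 11 tested Gs-coupled receptors of 16 listed, 7 were higher and 1 was lower, but each of the 7 had at most 10 counts in an untreated WT library and could pass the filter only, or mainly, through groups where it is high. Ptger2, a prostaglandin E2 receptor, was at 0 counts in all WT libraries and at least 199-fold higher in Lkb1-/- cells without and 473-fold with IL-1β. Calcrl, a receptor of the calcitonin family, Vipr2, a receptor for vasoactive intestinal peptide, and Ptgir, the prostacyclin receptor, were at 0 in WT as well (at least 33.9-, 9.79- and 7.18-fold higher). The adenosine receptors Adora2a and Adora2b were higher by 2.76 and 2.35 on the log2 scale.

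Of 7 tested G protein α genes 4 were higher and 0 lower, with a median log2 fold change of 0.23 over the 7, and Gnai1 could pass the filter only through groups where it is high. Among the 4 were the inhibitory subunits Gnao1 (log2 fold change 7.11, SE 0.32, adjusted p 5.8e-14), Gnaz (log2 fold change 4.68, SE 0.28, adjusted p 5.1e-12) and Gnai1, with 628 against 2 counts (a ratio of 307, counting interval 84.7 to 2540). Of 4 tested other cAMP effectors 2 were higher and 1 lower, and Rapgef3, which encodes the cAMP-activated exchange factor EPAC1, rose by 2.28. Of 13 tested A-kinase anchoring proteins 3 were higher and 6 lower, with Akap12 at 4.46 and Akap6 at −2.19. Of 3 tested phosphodiesterases specific for cyclic GMP 1 was higher (Pde9a, 2.12) and 1 lower (Pde5a, −2.32). Of 2 tested PKA inhibitor peptides 1 was higher and 1 lower, and both genes for cAMP export pumps, Abcc4 and Abcc5, were lower. Under IL-1β the same counts were 7 and 1 for the receptors, 4 and 0 for the α genes, 1 and 1 for the effectors, 3 and 6 for the anchoring proteins, 1 and 1 for the cyclic GMP phosphodiesterases, 1 and 1 for the inhibitors and 0 and 2 for the pumps, higher first.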

How the data were processed

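The 24 libraries were of total RNA. The labels give a SMARTER mRNA-Seq kit and the methods a KAPA HyperPrep kit with ribosomal depletion, so the chemistry is not settled. Reads were trimmed (Trim Galore 0.6.0) and mapped to GRCm38 by the authors with STAR 2.7.8a, whose raw counts per gene were deposited for 3 strand settings. The second-strand column was used, since 95.5 to 96.0% of stranded gene counts were in it. Lines that name no gene (26.7 to 34.4% of reads) were left out. Their share ran from 29.9 to 34.4% in the libraries of replicate 1 and from 26.7 to 30.0% in those of replicates 2 and 3. Of 55471 identifiers, 55144 matched a GENCODE M21 symbol.

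All 24 libraries and 8 groups entered 1 edgeR 4.0.16 quasi-likelihood fit (R 4.3.3) with TMM scaling and filterByExpr (minimum count 10, total 15), which kept 17522 genes, with Benjamini-Hochberg adjustment over all of them in each of 17 comparisons. The fit was tested on simulated data. CPM used TMM library sizes, and RPKM used the union of exons, so a shorter isoform in use is under-counted per length. Ratios against a group of 1 to 3 counts have exact counting intervals, and folds against 0 use 3 counts over the group. An exact permutation test of 3 libraries against 3 cannot go below p = 0.1, so none is given.

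Same-numbered libraries deviated together: 84 correlations of their deviations from group means were 0.122 to 0.743 over the 11355 genes whose mean log2 CPM was over 1, and 0.0355 to 0.589 over all tested genes, 69 of 84 above 0.1. The replicate number was therefore also fitted as a block. Library values are given for members called with a log2 fold change of at least 1 in size between genotypes or called for IL-1β or a response difference. Other pathway genes are given with values where they changed by at least 2 on that scale without and with IL-1β. The members and lists were chosen with earlier results of these data known. A receptor of the pathway lists is counted but not reported here by name. DESeq2 1.42.0, edgeR's newer quasi-likelihood form, unstranded counts, other scaling, no filter, fits on the compared groups only and leaving out each library were the alternatives.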

Additional observations from a re-analysis of the deposited data

Results flagged for a closer look

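In the fit without the replicate block, members called in opposite directions in the 2 DKO lines against the same Lkb1-/- libraries were Adcy7 and Adcy6, and with the block Pde4d was too, without IL-1β (−0.35, adjusted p 0.0012 in A1 and 0.24, adjusted p 0.021 in A2). For Adcy7 the log2 fold change of A2 against A1 was −1.77 without and −1.80 with IL-1β, with all 3 A2 libraries below all 3 A1 libraries in both conditions. For Adcy6 it was 0.60 without and 0.57 with IL-1β, with all 3 A2 libraries above all 3 A1 libraries, but its higher call in A2 against Lkb1-/- cells was lost in several alternatives. Each line is 1 clone, so the clone and the loss of Crtc2 cannot be told apart for these genes.

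The IL-1β response of Pde4b, Lkb1-/- minus WT, was −0.54 on the log2 scale and was called with the replicate block (adjusted p 0.038) and without the filter on low counts (−0.51, adjusted p 0.018), and not in the fit as reported. The highest WT library held 7.34 CPM of Pde4b.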

How the results depend on the processing

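The total counts of members called between genotypes stayed within 1.5 times of the values given under each alternative run. By direction, the lower calls of A2 against A1 with IL-1β went from 3 to 6 with no filter and 5 with the block (15.6% of all genes, 7.52% and 21.9%), the higher calls of A2 against Lkb1-/- with IL-1β from 5 to 3 with only the compared groups (17.1% to 11.8%), and the lower calls of A2 against Lkb1-/- from 7 to 4 without A2 treated replicate 1 (15.8% to 13.4%) and, without IL-1β, from 6 to 3 without Lkb1-/- untreated replicate 3 (15.1% to 12.8%). In the fits between genotypes the replicate block changed no call other than those given beside the results and, with IL-1β, Pde4d and Pde8a in A1 (−0.26, adjusted p 0.013, and −0.26, adjusted p 7.2e-04), Pde7a, Prkacb and Prkar2a in A2 against Lkb1-/- (−0.15, adjusted p 0.021, −0.30, adjusted p 1.7e-04, and 0.17, adjusted p 0.041), Prkar1a in A1 and A2 (0.21, adjusted p 0.0031, and 0.21, adjusted p 0.0035), and, for A2 against A1, Pde8a without (−0.17, adjusted p 0.021) and with IL-1β (−0.24, adjusted p 0.0018), Pde4b (0.21, adjusted p 0.016) and Pde7a (−0.25, adjusted p 3.0e-04) with it. With the block, 44.4 to 68.6% of all genes were called between genotypes. The counts of IL-1β calls did move. In WT they were 1 with upper quartile scaling, 2 with no filter, 1 with DESeq2, 4 with the replicate block and 1 when only the compared groups were fitted, where 3.05%, 2.59%, 3.54%, 9.3% and 2.12% of all genes were called. In Lkb1-/- cells they were 6 with the block (14.8% of all genes). In A1 they were 2 with upper quartile scaling, 2 with no filter, 1 with DESeq2, 3 with the block and 2 with only the compared groups (2.85%, 2.47%, 3.27%, 9.61% and 2.57% of all genes). In A2 they were 7 with the block and 1 with only the compared groups (17.9% and 1.39% of all genes). The response difference of Lkb1-/- and WT had 1 call with no filter and 1 with the block (0.943% and 1.77% of all genes, against 0.245% in the fit as reported). Leaving out 1 library gave 0 to 1 calls in WT (1 without treated replicate 1 or untreated replicate 3), 1 to 2 in Lkb1-/- (1 without treated replicate 1 or untreated replicate 2 or 3) and 2 to 5 in A2 (5 without untreated replicate 1), where at most 2.47%, 4.02% and 10.8% of all genes were called, the highest share being that without A2 untreated replicate 1. Pde8b in A1 against WT reversed to −0.053 (adjusted p 0.94) with unstranded counts. The causes were not tested. Low counts limit Pde1b, Pde8b and Prkar1b in every line and Pde1a, Pde3b and Pde10a in WT.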
